A study of Rattus rattus with 10 samples.

Results

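The endoplasmic reticulum (ER) chaperones and the unfolded protein response were followed in rat testis through 10 genes: Xbp1, Atf6, Hspa5, Hyou1, Calr, Pdia3, Pdia4, Dnajb9, Herpud1 and Sel1l. They were matched by gene symbol to the annotation of the array; the rule uses no measured value, but these genes were chosen with earlier results of these data known. They are 10 of 14217 named genes, and 13 of 31042 probe sets carry their symbols: 2 each for Atf6, Hyou1 and Pdia3, and 1 for each of the others. All 13 had signals above the floor of 37.1 units on all 10 arrays, and all passed the filter on low signals, so no member was lost. Unless another is named, the probe set with the highest mean signal stands for its gene.

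RNA of whole testis came from Long-Evans rats aged 60 days that had received 1 intraperitoneal injection of gamendazole at 6 mg/kg, of lonidamine at 25 mg/kg, or of vehicle (buffered DMSO). Each drug had 1 array at 4, 12 and 24 h, and vehicle had 1 array at 0, 4, 12 and 24 h, which makes 10 arrays without replicates of a treatment at an hour. Both drugs, acids built on an indazole ring, disturb the attachment of sperm cells to Sertoli cells. Their doses differ, so values for the drugs are set side by side and no test between them was made. The sources used here do not give the number of animals behind an array. The labels name the organism as Rattus rattus; Long-Evans rats are laboratory rats, Rattus norvegicus.

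Proteins that enter the ER fold with the help of chaperones and disulphide isomerases, and those that fail are sent back to the cytosol for degradation. When unfolded proteins build up, the membrane sensors IRE1, PERK and ATF6 are released from the chaperone BiP, the product of Hspa5. IRE1 then splices Xbp1 mRNA, ATF6 is cut to free a transcription factor, and PERK slows translation while ATF4 is made. The factors XBP1 and ATF6 are known to raise transcription of Hspa5 and of many chaperone and degradation genes. In mouse testis, germ cells use their own forms of ER chaperones to fold sperm surface proteins needed for fertilisation. These arrays read transcript level per probe set; splicing of Xbp1 and cleavage of ATF6 were not analysed here.

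Signals are scaled intensity units. For RNA quality, the beta-actin probe sets at the 3' and 5' ends of the transcript gave a signal ratio between 1.91 and 1.95 on gamendazole arrays, between 1.85 and 1.96 on lonidamine arrays and between 1.92 and 2.0 on vehicle arrays. The same ratio for GAPDH was 0.754, 0.804 and 0.853 at 4, 12 and 24 h with gamendazole, 0.792, 0.723 and 0.797 with lonidamine, and 0.75, 0.752, 0.732 and 0.795 at 0, 4, 12 and 24 h with vehicle. Gamendazole at 12 and 24 h thus lay above all vehicle arrays, as did lonidamine at 24 h by a small margin. For beta-actin, gamendazole at 4 and 24 h (1.907 and 1.905) and lonidamine at 24 h (1.851) lay below all vehicle arrays (lowest 1.918). The part of these ratios in the results was not tested. The instrument records place the arrays in 3 hybridisation runs, and the gamendazole 4 h array alone ran apart from the vehicle array of its hour. Testis identity was visible in the marker genes: Hspa2, a chaperone of meiotic and later germ cells, lay between 14204 and 16016 units with gamendazole, between 15121 and 16580 with lonidamine and between 16467 and 17144 with vehicle. Of the listed Sertoli, Leydig, meiotic, spermatid and peritubular markers on the array, 0 were under the floor on all arrays. In whole testis, fewer cells of a type and less RNA per cell cannot be told apart.

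Differences were tested in a fit of all 17549 probe sets that passed the filter (limma, Benjamini-Hochberg over all of them, threshold 0.05). The hours served as replicates, 3 arrays for each treatment. Averaged over 4, 12 and 24 h, 1 of the 10 members was higher with gamendazole and 0 were lower (limma; 2 higher and 0 lower at an unadjusted p under 0.05). Of all tested probe sets, 3.48% were higher and 0.473% lower with gamendazole. At an unadjusted p under 0.05 (limma), 1927 of the 17549 were higher and 1585 lower with gamendazole, and 1402 and 833 with lonidamine. With lonidamine 0 of the 10 members passed in either direction (limma; 2 higher and 0 lower at an unadjusted p under 0.05), against 0.769% of all tested probe sets higher and 0.0114% lower. The members' median log2 difference was 0.03 with gamendazole and 0.04 with lonidamine, beside -0.03 and -0.01 over all tested probe sets. The largest averaged differences were those of the transcription factors Xbp1 and Atf6 and of the chaperone Hyou1, with Atf6 and Hyou1 at 0.38 each with gamendazole. Those of the 7 other members lay between -0.12 and 0.17 with the 2 drugs.

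**Figure D1:**
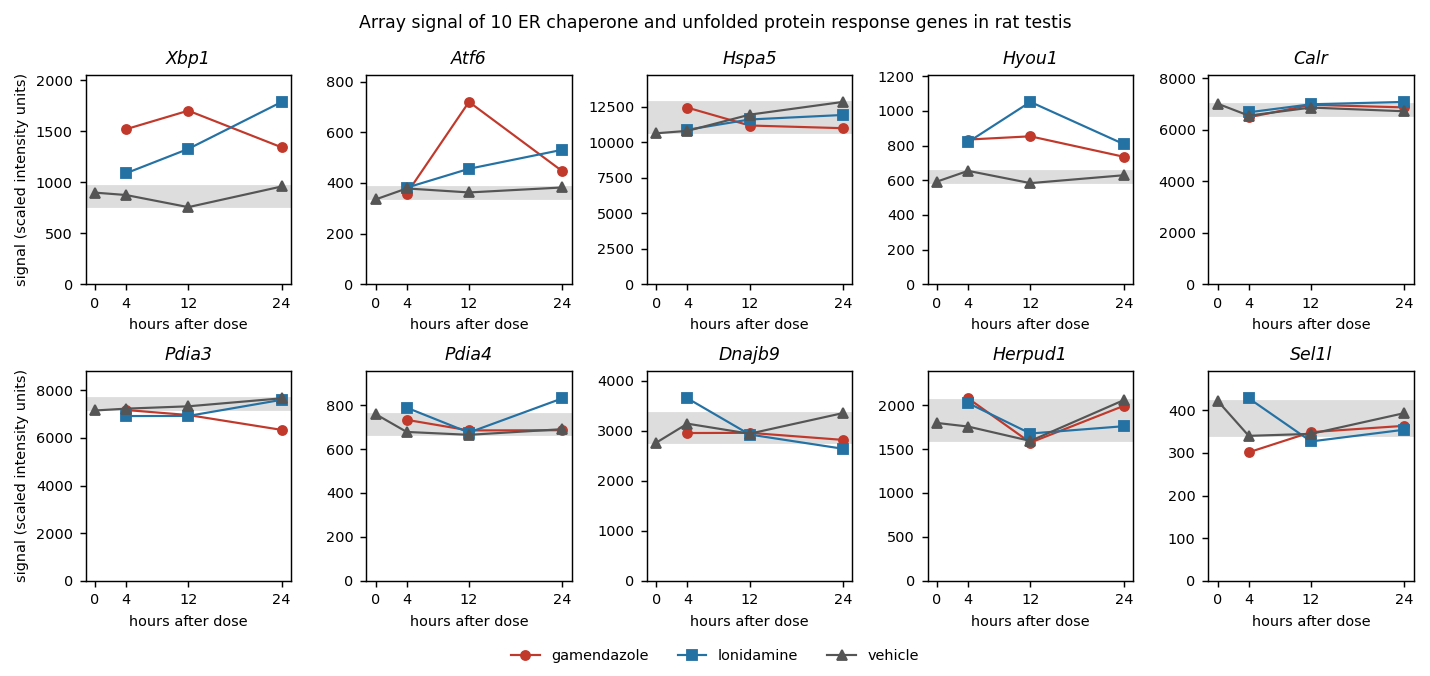
Signal (scaled intensity units, linear axes from 0) of the brightest probe set of each of the 10 members against hours after the dose, for gamendazole (circles), lonidamine (squares) and vehicle (triangles), 1 array per point; grey bands span the 4 vehicle arrays. All treated arrays of Xbp1 and Hyou1 lie above the band, while every treated array of Hspa5 lies within it.

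Xbp1 encodes the transcription factor whose mRNA is the substrate of IRE1. Its signal was 1520.6, 1702.3 and 1342.7 units at 4, 12 and 24 h with gamendazole. With lonidamine it was 1088.8, 1327.6 and 1788.3 units at these hours. Vehicle arrays gave 899.0, 875.6, 756.7 and 959.4 units at 0, 4, 12 and 24 h. No treated array overlapped the vehicle arrays. The highest gamendazole value was at 12 h and the highest lonidamine value at 24 h; with 1 array each, these hours have no replicate check.

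Over vehicle at the matching hour, Xbp1 was 1.74-fold, 2.25-fold and 1.40-fold with gamendazole at 4, 12 and 24 h, and 1.24-fold, 1.75-fold and 1.86-fold with lonidamine. Averaged, it rose 1.76-fold with gamendazole (log2 0.82 ± 0.17 standard error, limma adjusted p = 0.0278, 3 of 3 hours higher). With lonidamine the averaged difference was 0.67 ± 0.17 on the log2 scale, or 1.60-fold, and did not pass (limma adjusted p = 0.113, 3 of 3 hours higher). The pointwise 95% intervals were 1.36-fold to 2.28-fold with gamendazole and 1.24-fold to 2.06-fold with lonidamine. The gamendazole call was not firm: it ended without the 12 h arrays (log2 0.64, limma adjusted p = 0.414), without the gamendazole 4 h array (0.74, adjusted p = 0.057) and with the hybridisation run in place of the hour (0.76, adjusted p = 0.0771). Without the 4 h arrays Xbp1 passed with lonidamine too (0.85, limma adjusted p = 0.0432). Against the vehicle array of its own run, that of 12 h, the gamendazole 4 h array was 2.01-fold.

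Summed marker signals of several cell types differed from vehicle beside Xbp1. The sum of 7 Sertoli cell markers (of 12 listed) lay between 30634 and 37901 units with gamendazole and between 28707 and 35945 with lonidamine. With vehicle it lay between 25616 and 27400. The protease gene Ctsl was the 1 of 6 tested that passed, with either drug. Ctsl alone gave 6019.8 to 11744.9 units with gamendazole, 4453.5 to 9246.2 with lonidamine and 3402.1 to 3798.9 with vehicle. All 6 tested had positive averaged differences with each drug, the smallest being 1.03-fold for Clu. The sum of 7 spermatid markers (of 8 listed) was 182688 to 206586 units with gamendazole, 187416 to 203664 with lonidamine and 209632 to 222477 with vehicle, and 0 of 7 passed. The sum of 10 macrophage and leukocyte markers was 2103 to 4337 units with gamendazole, 1695 to 4116 with lonidamine and 1771 to 1898 with vehicle. Of it, Lyz2 alone gave 1307.9 to 3045.3 units with gamendazole, 941.1 to 2716.3 with lonidamine and 1028.4 to 1143.5 with vehicle. Averaged differences were positive for 7 of 7 tested with gamendazole and 6 with lonidamine. The neutrophil and monocyte gene S100a9 was the 1 of 7 tested that passed, with gamendazole. S100a9 reached the filter on treated arrays alone; its vehicle arrays gave 53.7, 1.0, 43.8 and 13.0 units, so its call carries no weight.

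Plasma cells are rich in XBP1, and 4 of 6 of their and B cell markers were on the array. Their summed signal was 684 to 872.8 units with gamendazole, above the vehicle arrays, 461.5 to 707.9 with lonidamine and 496.7 to 645.6 with vehicle. Of the 2 tested, 0 passed. Sdc1, which encodes syndecan-1 and is also made by epithelial cells, gave 103.1, 419.3 and 375.5 units at 4, 12 and 24 h with gamendazole, 36.4, 132.2 and 214.3 with lonidamine, and 97.7, 68.0, 78.5 and 110.6 at 0, 4, 12 and 24 h with vehicle. Sdc1 reached the filter on treated arrays alone, so its averaged difference with gamendazole (limma adjusted p = 0.0519, not passed) carries no weight. Cd79b lay between 5.0 and 21.9 units, under the floor on all arrays, and Mzb1 between 15.1 and 122.1 units. Jchain was at 317.7 to 484.0 units with gamendazole, 364.1 to 444.4 with lonidamine and 363.8 to 479.2 with vehicle. At 12 and 24 h with gamendazole, Sdc1 was the only marker above the floor that exceeded all vehicle arrays. The higher sums at these hours were thus not shared by the 4 markers. The sum of 4 peritubular markers was 1768 to 2029 units with gamendazole, 1866 to 2437 with lonidamine, above the vehicle arrays, and 1666 to 1810 with vehicle. Of them the smooth muscle gene Tagln passed with gamendazole (2.36-fold, limma adjusted p = 0.0178) and was 2.26-fold with lonidamine (adjusted p = 0.0505). The sum of 4 endothelial markers (of 5) was 278.5 to 470.8 units with gamendazole, 463.4 to 775 with lonidamine and 427.6 to 582.4 with vehicle, with 0 of 3 tested past the test. The sum of 5 meiotic markers (of 7) was 57280 to 62498 units with gamendazole, 57504 to 64885 with lonidamine and 63123 to 66717 with vehicle, with 0 of 5 past the test. The sum of 6 Leydig markers was 5046 to 15151 units with gamendazole, 6130 to 8539 with lonidamine and 8178 to 10560 with vehicle, with 0 of 6 past the test. This sum hides a fall by hour. At 24 h with gamendazole Cyp17a1 was at 5.8 units, Cyp11a1 at 94.1 and Lhcgr at 76.5, against 1269.0, 1860.7 and 675.3 with vehicle. On that array only Star, of the 6, was above its vehicle array, at 2289.4 against 1124.0 units. The part of these cells in the Xbp1 values was not tested.

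Atf6 encodes the sensor that becomes a transcription factor once it is cut in the Golgi. Its brighter probe set gave 358.3, 720.1 and 446.3 units at 4, 12 and 24 h with gamendazole. With lonidamine it gave 381.5, 456.1 and 531.2 units, and with vehicle 335.1, 378.5, 362.7 and 382.4 units at 0, 4, 12 and 24 h. The gamendazole 12 h array stood alone, at 1.99-fold of its vehicle array, and both 4 h arrays lay within the vehicle range. The averaged log2 difference was 0.38 ± 0.20 with gamendazole and 0.27 ± 0.20 with lonidamine, and neither passed (limma adjusted p = 0.341 and 0.647).

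The dimmer probe set of Atf6 ran the other way. It gave 83.4, 72.8 and 121.8 units at 4, 12 and 24 h with gamendazole, all below the vehicle arrays. With lonidamine it gave 158.7, 194.4 and 114.5 units, and with vehicle 242.7, 192.4, 195.9 and 174.9 units. Gamendazole 12 h was thus highest of 10 arrays on one probe set and lowest on the other. The averaged log2 difference of the dimmer set was -1.05 ± 0.30 with gamendazole (limma adjusted p = 0.0918) and -0.30 ± 0.30 with lonidamine (adjusted p = 0.752). Over the 10 arrays the log2 signals of the pair had a Pearson r of -0.65, a description of arrays that share treatments. A direction for Atf6 as a gene cannot be given from these arrays, since its probe sets disagree.

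**Figure D2:**
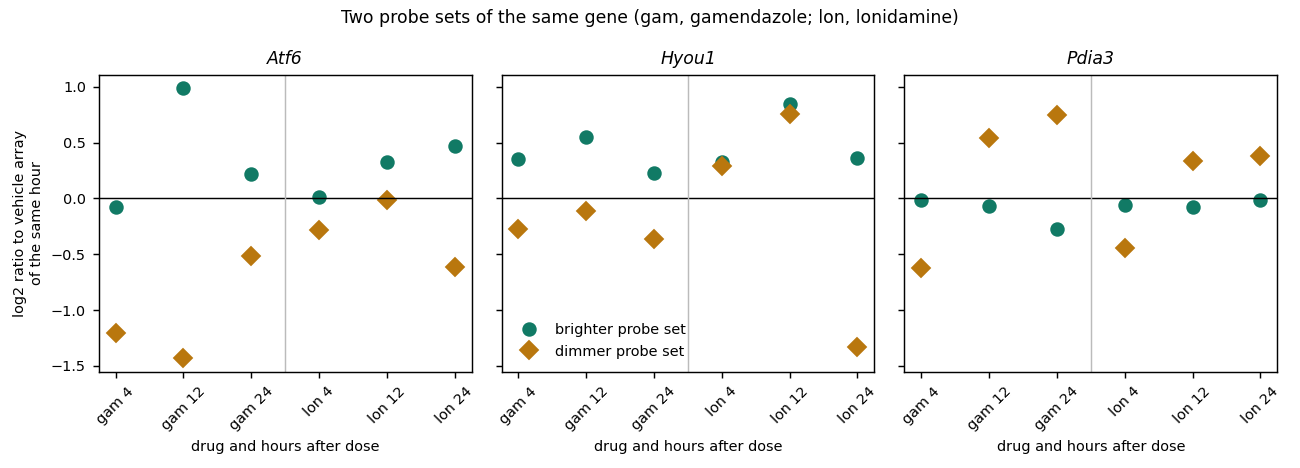
Log2 ratio of each treated array to its hour-matched vehicle array, for the brighter (circles) and the dimmer (diamonds) probe set of Atf6, Hyou1 and Pdia3; gam is gamendazole and lon lonidamine, with hours after the dose. For Atf6 the dimmer set lies below the brighter one on all 6 treated arrays, and for Hyou1 the sets part most on the lonidamine 24 h array.

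Hspa5 encodes BiP, the main HSP70 chaperone of the ER and the usual readout of the response. It was at 12443.5, 11182.7 and 10994.1 units at 4, 12 and 24 h with gamendazole. With lonidamine it was at 10883.9, 11607.8 and 11925.8 units, and with vehicle at 10635.6, 10805.7, 11947.4 and 12845.5 units at 0, 4, 12 and 24 h. All 6 treated arrays lay inside the vehicle range. The averaged log2 difference was -0.04 ± 0.07 with gamendazole (limma adjusted p = 0.81) and -0.05 ± 0.07 with lonidamine (adjusted p = 0.853). The pointwise 95% intervals ran from 0.87-fold to 1.09-fold with gamendazole and from 0.866-fold to 1.08-fold with lonidamine. Changes of the size seen for Xbp1 lie outside these intervals. Their error comes from how differences between treatments varied over the hours, with 1 array for each treatment and hour.

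Hyou1 encodes GRP170, a large HSP70-like chaperone that also exchanges the nucleotide of BiP. Its brighter probe set gave 835.0, 853.7 and 735.7 units at 4, 12 and 24 h with gamendazole. With lonidamine it gave 820.4, 1052.2 and 808.7 units, and with vehicle 592.5, 654.6, 583.7 and 629.2 units. No treated array overlapped the vehicle arrays, and lonidamine 12 h was the highest, at 1.80-fold of its vehicle array. The averaged log2 difference was 0.38 ± 0.13 with gamendazole and 0.51 ± 0.13 with lonidamine, or 1.30-fold and 1.43-fold, and did not pass (limma adjusted p = 0.137 and 0.113, 3 of 3 hours higher with each drug).

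The dimmer probe set of Hyou1 followed the brighter one with lonidamine at 4 and 12 h, and not on the 4 other treated arrays. It gave 154.9, 184.3 and 236.5 units with gamendazole, 228.9, 336.5 and 120.9 units with lonidamine, and 214.9, 186.6, 198.5 and 303.0 units with vehicle. At 4 and 12 h with lonidamine it was 1.23-fold and 1.70-fold of hour-matched vehicle, beside 1.25-fold and 1.80-fold for the brighter set, and the 12 h array lay above all vehicle arrays. At 24 h with lonidamine it was 0.399 of vehicle, and with gamendazole 0.83, 0.928 and 0.781. Its groups overlapped, its vehicle arrays alone spanned 1.62-fold, and its averaged log2 differences were -0.24 ± 0.36 and -0.09 ± 0.36 (limma adjusted p = 0.756 and 0.954). Pearson's r between the pair was 0.07 over 10 arrays. With gamendazole, and with lonidamine at 4 and 24 h, the Hyou1 values above the vehicle range were seen on 1 of its 2 probe sets.

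In all, 2 of 10 members, Xbp1 and Hyou1, had their 3 gamendazole arrays above all 4 vehicle arrays, and 0 had them below. The same held for 10.1% (above) and 8.97% (below) of all tested probe sets. With lonidamine the same 2 members lay above and 0 below, against 7.19% and 7.14% of all tested probe sets. The drugs share their vehicle arrays, so the counts are not separate evidence.

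Calr encodes calreticulin, the soluble lectin chaperone that holds glycoproteins until they fold. Its signal was 6478.8, 6961.4 and 6860.9 units at 4, 12 and 24 h with gamendazole. With lonidamine it was 6671.4, 6982.4 and 7074.4 units, and with vehicle 7004.9, 6542.1, 6854.8 and 6710.5 units. The 10 arrays spanned 1.09-fold, the narrowest range of the 13 probe sets. The averaged log2 difference was 0.01 ± 0.05 with gamendazole and 0.04 ± 0.05 with lonidamine (limma adjusted p = 0.907 and 0.775), with pointwise 95% intervals of 0.936-fold to 1.09-fold and 0.956-fold to 1.11-fold.

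Pdia3, which works with calreticulin and calnexin on the disulphide bonds of glycoproteins, lay at 7170.9, 6960.8 and 6335.6 units with gamendazole. With lonidamine it lay at 6917.3, 6922.3 and 7600.4 units, and with vehicle at 7150.7, 7228.2, 7326.5 and 7663.1 units. Each of the 6 treated arrays was below the vehicle array of its hour, and gamendazole 24 h was the lowest, at 0.827 of its vehicle array. The averaged log2 differences of -0.12 ± 0.07 and -0.05 ± 0.07 did not pass (limma adjusted p = 0.352 with gamendazole and 0.807 with lonidamine), and quantile normalization turned the sign with lonidamine. The dimmer probe set of Pdia3 lay between 90.6 and 202.6 units with gamendazole, 103.1 and 157.1 with lonidamine and 103.1 and 154.2 with vehicle, and did not pass (limma adjusted p = 0.735 and 0.939). Pearson's r between the pair was -0.41 over 10 arrays.

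Pdia4, a disulphide isomerase that associates with BiP, gave 733.0, 684.8 and 685.7 units with gamendazole. With lonidamine it gave 788.3, 675.1 and 831.1 units, and with vehicle 759.2, 677.9, 664.7 and 690.5 units. Gamendazole arrays stayed within the vehicle range, and lonidamine 4 and 24 h lay above it. The averaged log2 differences were 0.05 ± 0.11 with gamendazole and 0.17 ± 0.11 with lonidamine (limma adjusted p = 0.843 and 0.578).

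Dnajb9, a BiP co-chaperone that marks misfolded proteins for degradation and dampens IRE1, gave 2954.2, 2958.2 and 2816.7 units with gamendazole. With lonidamine it gave 3648.8, 2924.3 and 2639.1 units, and with vehicle 2761.3, 3141.4, 2941.0 and 3353.7 units. Lonidamine spanned both sides of the vehicle range, with its 4 h array above and its 24 h array, at 0.787 of the vehicle array of that hour, below. The averaged log2 differences were -0.11 ± 0.10 with gamendazole and -0.05 ± 0.10 with lonidamine (limma adjusted p = 0.587 and 0.902).

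Herpud1 and Sel1l belong to the complex around the ubiquitin ligase HRD1 that returns misfolded proteins to the cytosol. Herpud1 gave 2079.3, 1574.4 and 1993.2 units with gamendazole, 2025.0, 1678.0 and 1761.2 units with lonidamine, and 1798.5, 1757.3, 1593.4 and 2058.6 units with vehicle. Its vehicle and gamendazole arrays were both low at 12 h and high at 24 h. Sel1l gave 301.6, 348.9 and 363.8 units with gamendazole, 428.4, 327.1 and 354.7 units with lonidamine, and 422.4, 340.2, 344.9 and 393.7 units with vehicle. For both genes the groups overlapped, and the averaged log2 differences lay between -0.09 and 0.06 (limma adjusted p between 0.777 and 0.967).

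**Figure D3:**
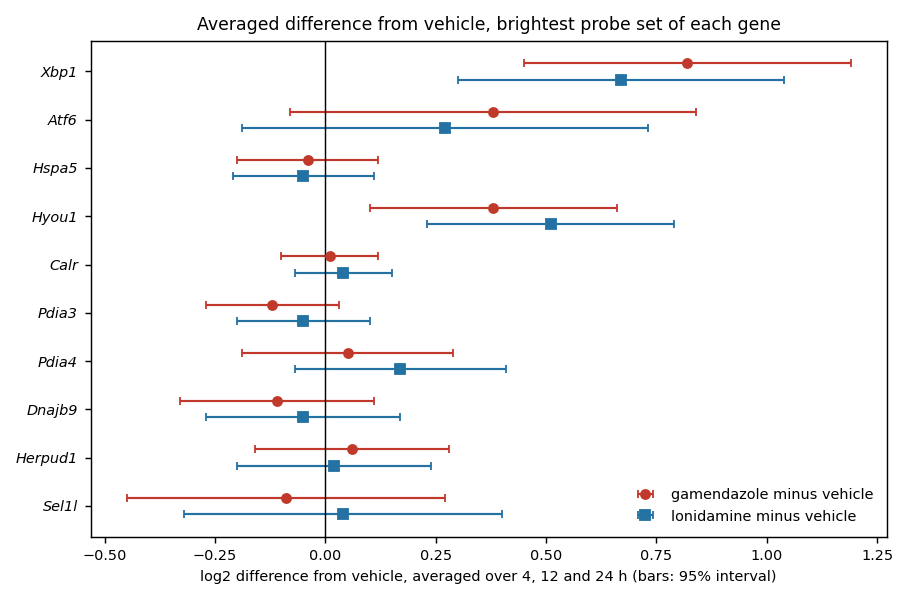
Log2 difference from vehicle averaged over 4, 12 and 24 h for the brightest probe set of each member, gamendazole (circles) above lonidamine (squares); bars are pointwise 95% intervals of the limma fit (3 arrays per treatment). Xbp1 with gamendazole, at 0.82, is the 1 value that passed after adjustment over all tested probe sets, and the intervals of Hspa5 and Calr are narrow and hold 0.

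Single treated arrays were also set against the 4 vehicle arrays together, a fit whose error comes from vehicle arrays alone (3 residual degrees of freedom). At 4 h with gamendazole 1 of 10 members, Xbp1, was higher (limma adjusted p = 0.0477), beside 1.16% of all tested probe sets called in either direction. At 12 h with gamendazole 2 were higher, Xbp1 (log2 0.97, limma adjusted p = 0.00735) and Atf6 by its brighter probe set (0.98, adjusted p = 0.0116), beside 7.76% of probe sets. The dimmer Atf6 probe set was lower on that array (-1.46, limma adjusted p = 0.0269). At 24 h with gamendazole 1 was higher, Xbp1 (0.63, limma adjusted p = 0.033), beside 9.77%.

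With lonidamine no member was called at 4 h, beside 0.0684% of probe sets. The largest log2 differences there were 0.42 for Hyou1 and 0.32 for Xbp1. At 12 h 1 passed, Hyou1 by its brighter probe set (limma adjusted p = 0.0345), beside 1.42%. At 24 h 1 passed, Xbp1 (limma adjusted p = 0.00593), beside 7% of probe sets. No member was lower on any of the 6 treated arrays by its brightest probe set. Leaving out any 1 of the vehicle arrays ended the calls at gamendazole 4 h and lonidamine 12 h. At gamendazole 24 h the call ended without the vehicle array of 0, 4 or 12 h.

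Without a test, 1 of 10 members reached a 2-fold difference from hour-matched vehicle by its brightest probe set. It was Xbp1 on gamendazole 12 h, where 9.23% of all tested probe sets did. None of the 10 brightest probe sets did on gamendazole 4 h (5.49% of probe sets), gamendazole 24 h (9.58%), lonidamine 4 h (3.72%), lonidamine 12 h (6%) or lonidamine 24 h (8.47%). Dimmer probe sets fell by more than 2-fold on some arrays. That of Atf6 was 0.433 of vehicle on gamendazole 4 h and 0.372 on gamendazole 12 h, and that of Hyou1 was 0.399 on lonidamine 24 h. Pairs of vehicle arrays differed 2-fold at 3.08% to 3.77% of tested probe sets.

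Other genes of the pathway were taken from a list of 112 symbols, some of them older and newer names of 1 gene; 98 were on the array and 94 were tested. With gamendazole 6 of 94 rose and 0 fell (limma; 18 higher and 9 lower at an unadjusted p under 0.05), which is 6.38% of the list against the 3.48% of all tested probe sets given above. With lonidamine 1 rose and 0 fell (limma; 10 higher and 3 lower at an unadjusted p under 0.05), 1.06% of the list against 0.769% of all tested probe sets. The list holds 1 probe set per gene. On that basis, 395 of 10510 tested named genes were higher with gamendazole and 89 with lonidamine. At an unadjusted p under 0.05 (limma), 1199 of these genes were higher and 1131 lower with gamendazole, and 853 and 599 with lonidamine. The 6 with gamendazole include Atf3, which reached the filter through treated arrays alone. The list's median log2 difference was 0.03 with gamendazole and 0.02 with lonidamine. Without the 12 h arrays, or without the filter on low signals, 0 probe sets of the whole table passed with either drug, so these calls rest on both.

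In the branch of PERK and stress output, 4 of 13 tested genes rose with gamendazole, Atf3 among them, and 1 with lonidamine. Most of this group was not called. Its median log2 difference was 0.08 with gamendazole and 0.36 with lonidamine, and 9 of 13 were positive with each drug. Atf4, the transcription factor made when PERK slows translation, gave 1255.6, 1550.1 and 1344.3 units with gamendazole, 909.3, 1154.2 and 1285.7 units with lonidamine and 718.4, 719.3, 570.4 and 720.3 units with vehicle. It rose 2.07-fold with gamendazole (limma adjusted p = 0.00653), and its 1.66-fold difference with lonidamine did not pass (adjusted p = 0.0559). Atf3, a stress-induced factor of the same family, gave 142.2, 426.9 and 341.0 units with gamendazole, 82.9, 217.5 and 438.0 units with lonidamine and 9.0, 46.9, 48.1 and 38.7 units with vehicle. It reached the filter through treated arrays alone, so its call with gamendazole (limma adjusted p = 0.0146), counted among the 4 of 13 and the 6 of 94, carries no weight, and no fold is given over vehicle signals so near the floor. Ppp1r15a, which encodes GADD34 and restores translation, rose 4.62-fold with gamendazole and 4.01-fold with lonidamine (limma adjusted p = 0.00828 and 0.0318). The fourth, named here after its values were seen, was the apoptosis gene Bcl2l11, 2.0-fold higher with gamendazole (limma adjusted p = 0.0389). Atf3 and Ppp1r15a are also induced by stimuli other than ER stress. Ddit3, which encodes CHOP and was picked after its values were seen, differed by 0.03 ± 0.08 and -0.10 ± 0.08 on the log2 scale (limma adjusted p = 0.857 with gamendazole and 0.67 with lonidamine). The log2 differences of the group's remaining tested genes, none of them called, ran from -0.61 (Ddit4) to 1.23 (Nupr1) with gamendazole. With lonidamine they ran from -0.34 (Chac1) to 0.69 (Nupr1).

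Of 9 tested sensors and factors, Creb3, an ER-bound factor that is cut like ATF6, rose 1.84-fold with gamendazole (limma adjusted p = 0.0109) and was 1.59-fold with lonidamine (adjusted p = 0.066). Of 12 disulphide enzymes, Txndc5 rose 1.89-fold with gamendazole (limma adjusted p = 0.02). P4hb and Ero1a, picked after their values were seen, were 2.04-fold and 1.91-fold with gamendazole and did not pass (limma adjusted p = 0.0711 and 0.0588). With lonidamine they were 1.49-fold and 1.2-fold (limma adjusted p = 0.425 and 0.712). The median log2 difference of the 12 was 0.05 with gamendazole and 0.03 with lonidamine. None of 15 further chaperones and co-chaperones, 20 degradation genes, 21 translocon and traffic genes or 4 testis forms passed with either drug (limma). Their median log2 differences with gamendazole were 0.06, -0.07, 0.15 and -0.26, and with lonidamine 0.04, -0.03, 0.09 and -0.10. The 4 testis forms were Calr3, Dnajb13, Hspa1l and Hspa2, which are not all ER chaperones. Hspa1l was under the floor on 3 arrays. This group therefore does not stand for the ER chaperones of germ cells. Hsp90b1, the HSP90 of the ER, picked after its values were seen, differed by -0.15 ± 0.05 with gamendazole and -0.05 ± 0.05 with lonidamine (limma adjusted p = 0.135 and 0.739).

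**Figure D4:**
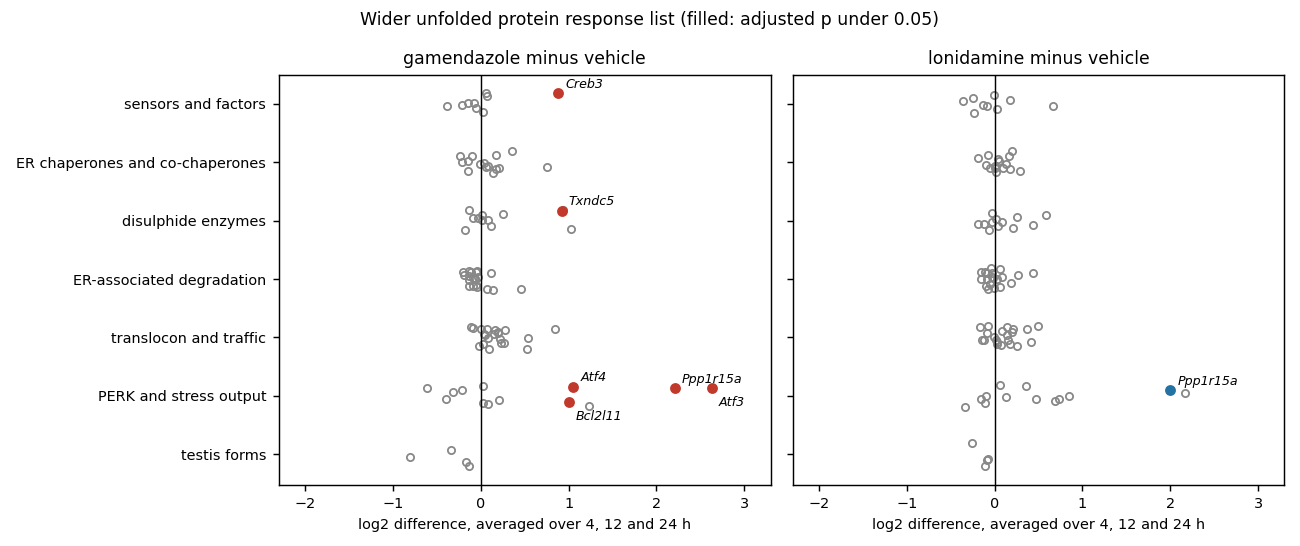
Log2 difference from vehicle averaged over 4, 12 and 24 h for the 94 tested genes of the wider list, 1 point per gene in rows by role, gamendazole on the left and lonidamine on the right; vertical scatter is for legibility only. Filled points passed the limma test: 6 with gamendazole, of which 4 lie in the row of PERK and stress output, and Ppp1r15a with lonidamine. Atf3, 1 of these 4, reached the filter through treated arrays alone, so its call carries no weight.

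The pattern of Hspa5 over the 10 arrays was compared with that of 10509 other named genes by Pearson's r of log2 signals. The closest were Nifk (r = 0.917), Nt5m (0.915), Psmg1 (0.897), Dnajc21 (0.894) and Vps51 (0.883), and the most opposite were Fam151b (-0.932), Arel1 (-0.91) and Rbm22 (-0.907). Among members the closest to Hspa5 was Pdia3 (0.58), and Xbp1 (0.14) and Hyou1 (0.04) were near 0. These values describe 10 arrays that share treatments and hours, and no test was made on them.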

How the data were processed

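RNA of whole rat testis was measured on 10 Affymetrix arrays. The authors deposited 1 linear intensity for each probe set, made with GCOS 1.1, per the submitters' processing notes; by the values, each array had been scaled by the authors so that its mean after 2% trimming on both sides was 500.2, which removes differences in total RNA. The deposited instrument records (unit other) were used only to group arrays into 3 hybridisation runs. Here 57 control probe sets were left out, a floor was set at the 25th percentile of all values (37.1), and signals were log2-transformed. The filter kept 17549 probe sets whose signal reached the median of all values (116.2) on at least 2 arrays. limma 3.58.1 in R 4.3.3 was fitted with treatment and hour to the 9 arrays of 4, 12 and 24 h (4 residual degrees of freedom; eBayes with trend), and with each treated array against the 4 vehicle arrays on all 10. It was checked on simulated arrays. P-values rest on hours or vehicle arrays as stand-ins for replicates, which may hold technical spread, and precision is limited by how few arrays there are. The platform annotation supplied gene symbols: 20826 probe sets had 1 symbol, 436 several (unnamed) and 9780 none listed. Of its gene identifiers 0 were in a second gene table, so symbols were not updated. All members are named. Other pathway genes are named if past the threshold, up to 3 per role and direction, Bcl2l11 being a further one. Ddit3, Hsp90b1, P4hb and Ero1a were picked after their values were seen. Ddit4, Nupr1 and Chac1 are named as the ends of ranges. Members and lists were chosen with earlier results of these data known.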

Additional observations from a re-analysis of the deposited data

How the results depend on the processing

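With gamendazole averaged, where 1 member passed, the count was 0 with the floor raised to the 50th percentile, 0 with no filter, 0 without the variance trend, 0 with the run as factor instead of the hour and 0 without gamendazole 4 h; leaving out the arrays of 1 hour gave 0 to 1. With lonidamine averaged it was 0, or 0 to 1 with an hour left out. For gamendazole 4 h (1) it was 0 with the 50th percentile floor, no filter, no trend or quantile normalization, and 0 to 0 with a vehicle array left out. For gamendazole 12 h (2) it was 1 with no filter and 2 to 2 with a vehicle array left out. For gamendazole 24 h (1) it was 0 with that floor, no filter or no trend, and 0 to 1. For lonidamine 12 h (1) it was 2 with the filter on all arrays, 0 with no trend, and 0 to 0; for lonidamine 24 h (1) 0 with no filter and 1 to 1. The smaller count of probe sets tested or of arrays is part of some of these settings; otherwise the cause was not tested. Over these settings the averaged log2 difference of Xbp1 stayed between 0.64 and 0.98 with gamendazole. Averaged differences near 0 changed sign, none of them called. With gamendazole, quantile normalization gave 0.061 for Hspa5 and -0.009 for Pdia4, the run gave -0.006 for Calr, and the fit without gamendazole 4 h gave 0.026 for Sel1l. With lonidamine, quantile normalization gave 0.055 for Hspa5, 0.023 for Pdia3 and -0.048 for Sel1l. Leaving out 1 hour gave -0.16 to 0.054 for Hspa5 and -0.032 to 0.113 for Herpud1 with gamendazole, and -0.177 to 0.104 for Dnajb9, -0.075 to 0.14 for Herpud1 and -0.113 to 0.128 for Sel1l with lonidamine. Over all probe sets, 693 passed with gamendazole and 137 with lonidamine, against 247 and 1 with the higher floor, 0 and 0 with no filter, 28 and 2 without the trend, 205 and 92 with the run, 372 and 50 without the hour, 1162 and 225 without gamendazole 4 h, 536 and 39 with the filter on all arrays, and 0 to 1646 and 0 to 600 with an hour left out.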
